A study of Mus musculus with 6 samples.

Results

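The nuclear genes of respiratory complexes II, III, IV and V were compared in hind limb muscle between Baf155 WT mice and mice that lack Baf155 in muscle (Baf155 ΔMF), and none of them passed an adjusted p of 0.05. Members were the rows of the deposited gene table with the symbols *Sdha*, *Sdhb*, *Sdhc*, *Sdhd* or *Cyc1* and those with symbols that begin with Uqcr, with Cox and a digit from 4 to 8, or with Atp5. This rule took 48 of 20632 genes, of which 4 belonged to complex II, 9 to complex III, 18 to complex IV and 17 to complex V. All 48 were protein-coding genes in the GENCODE M21 annotation of GRCm38. In 3 of them the symbol fits the rule but the product is not a subunit in the usual count. *Cox7a2l* encodes a factor that joins complexes into supercomplexes, *Atp5s* a coupling factor, and *Atp5sl* a protein that M21 lists as *Dmac2*.

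Complexes II, III and IV pass electrons from succinate through coenzyme Q and cytochrome c to oxygen. Complexes III and IV pump protons across the inner mitochondrial membrane, and complex V, the ATP synthase, uses the return of those protons to make ATP. Muscle fibers rely on this chain during sustained contraction, and for several complex IV subunits heart and skeletal muscle use isoforms that differ from those of most other tissues. Part of complexes III, IV and V is encoded by mitochondrial DNA, and those genes were not analysed here.

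Each genotype had 3 male mice aged 3 months, of strain C57BL/6 in the labels and on a C57BL/6J background in the study's methods. Baf155 ΔMF mice carried floxed *Baf155* with a Cre transgene under the muscle creatine kinase promoter (MCK-Cre; Baf155 f/f), which the study describes as active in the heart too, and their labels give the genotype as Baf155 -/-. Baf155 WT mice carry the label wild type and are given in the study as Baf155 f/f with no Cre named, so that both genotypes had the floxed allele, and both were unexercised. RNA came from whole muscles (TA, EDL, GA, SOL and Q), so cells other than muscle fibers also contributed, and fewer cells of a type and less RNA per cell cannot be told apart. Mouse titles began with MS13, MS14 or MS15, which the labels do not explain. WT 1 and both ΔMF 1 and ΔMF 2 carried MS13, WT 2 and WT 3 carried MS15, and ΔMF 3 carried MS14, so that genotype and title prefix cannot be told apart except within MS13. Values per mouse are given below in the order WT 1, WT 2, WT 3, then ΔMF 1, ΔMF 2, ΔMF 3.

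The 6 libraries held between 8426022 and 12469335 counts. Levels are TMM-normalized CPM, which puts counts on a common library size, and a floor of 3 counts corresponded to 0.230 to 0.351 CPM, which covers counting error only. *Smarcc1*, which encodes Baf155, was at 23.4, 19.5 and 17.0 CPM in Baf155 WT mice and at 7.05, 6.54 and 7.72 CPM in Baf155 ΔMF mice. This was a log2 fold change of -1.49 (SE 0.15, adjusted p = 0.00907 by edgeR's quasi-likelihood test), and the groups did not overlap. Of the muscle markers, the myosin *Myh4* was at 43271 CPM in ΔMF 3, its lowest mouse, whereas the 5 heart markers together lay between 1.52 and 4.08 CPM in every mouse, with *Nppb* at 0. On the first principal component, which held 43.3% of the variance of all genes tested, WT 2 and WT 3 stood apart at 24.98 and 22.52, and the other 4 mice lay between -17.1 and -1.56.

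Of the 48 members, 45 passed the filter on low counts and were tested. The other 3 are complex IV genes, and of these *Cox6b2* had 5 counts in all mice together, *Cox7b2* had 2 and *Cox8c* had 0. Together the members took 1.79%, 1.87% and 2.09% of the counts of the Baf155 WT mice and 1.68%, 1.77% and 1.92% of those of the Baf155 ΔMF mice. The shares of the groups overlapped, and ΔMF 1 was the lowest.

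No member had an adjusted p under 0.05 by edgeR, and the smallest was 0.611. Over all 12116 genes tested, 3 passed this limit (0.0248%). Without adjustment 1 member had a p under 0.05, against 963 of all genes tested (7.95%). For no member did all Baf155 ΔMF mice lie below or above all Baf155 WT mice, whereas 1305 of the genes tested (10.8%) were separated in this way. DESeq2 and limma with voom also called 0 members. Without WT 1, 1 member (*Atp5e*) was called by edgeR among 955 of 12288 genes, in a fit where the genotypes share no title prefix. The number at an unadjusted p under 0.05 was 3 without WT 1, 4 without ΔMF 3 and 0 without any of the other mice in turn, against 23.8%, 10.2% and 3.69% to 4.6% of all genes tested in those fits. The log2 fold change was below 0 in 30 members and above 0 in 15, with a median of -0.03. Over all genes tested it was below 0 in 6083 and above 0 in 6033, with a median of -0.00095. The value lay within 0.1 of 0 in 29 members and in 42.0% of all genes tested.

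The SEs and intervals below come from a fit without the title prefix and describe the spread between mice in it. They do not bound differences that go with the prefix, since genotype and prefix cannot be told apart outside MS13. The members' median SE was 0.103 on the log2 scale, against 0.135 over all genes tested and 0.103 over the 1238 tested genes with a mean above 100 CPM. The 95% confidence interval of the fold change stayed within 1.5-fold in either direction for 44 of the 45 members and within 1.2-fold for 15. The exception at 1.5-fold was *Cox4i2*, which had only 11 to 24 counts per mouse. Over the 6 mice the coefficient of variation of the members had a median of 8.19%, and it ran from 4.27% for *Atp5b* to 22.1% for *Cox4i2*.

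**Figure D1:**
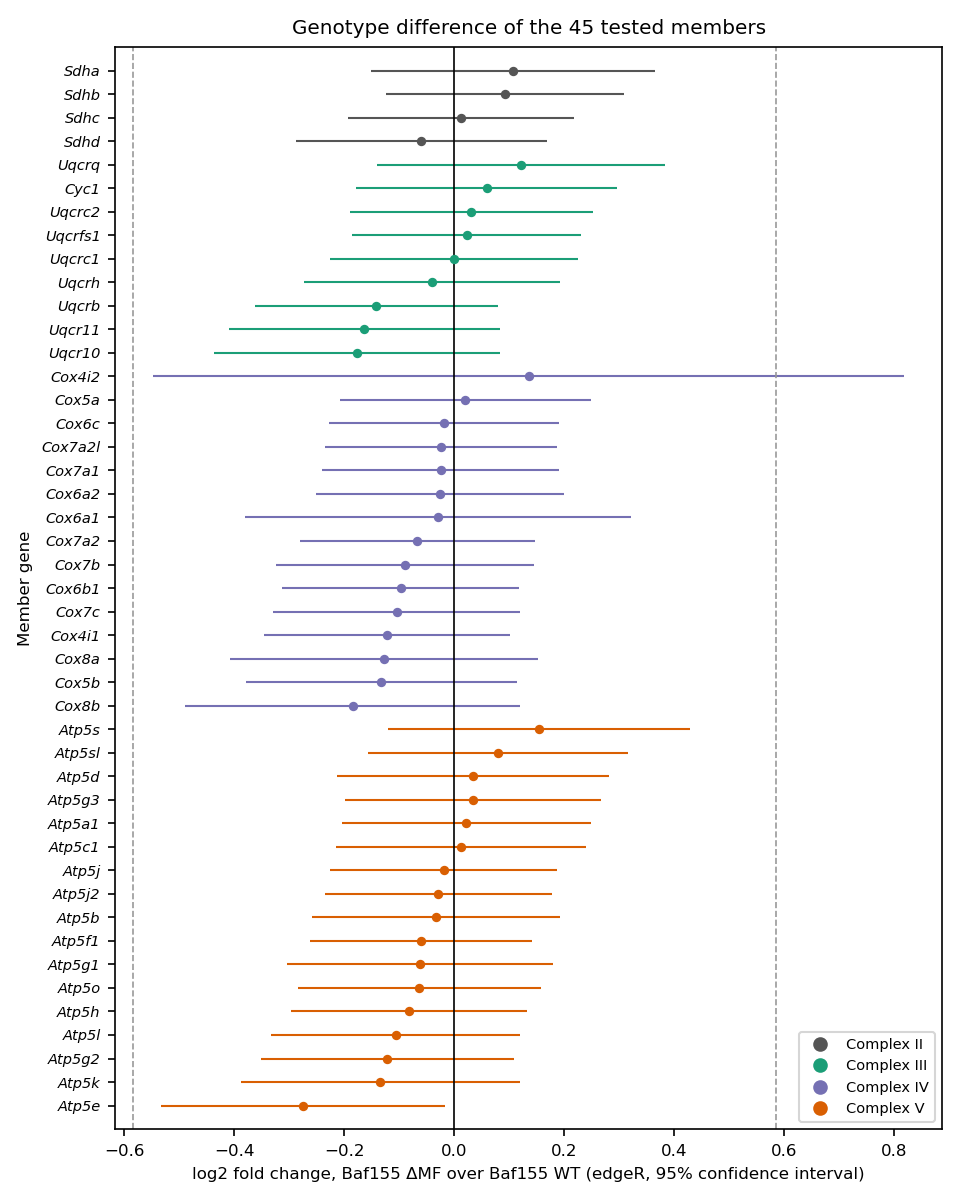
Log2 fold change of each of the 45 tested members between Baf155 ΔMF and Baf155 WT muscle (x axis), with its 95% confidence interval from edgeR, ordered within each complex (y axis) and colored by complex. Dashed lines mark 1.5-fold in either direction. The interval of *Atp5e* alone leaves out 0, and that of *Cox4i2* alone crosses a dashed line.

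The mean log2 CPM over the members of a complex gives its level in each mouse. For complex II it was 8.49, 8.33 and 8.56 in Baf155 WT mice and 8.49, 8.49 and 8.53 in Baf155 ΔMF mice, a difference of 0.04. For complex III it was 8.20, 8.13 and 8.32 against 8.08, 8.17 and 8.29, a difference of -0.03. WT 3 was the highest mouse in both complexes, and the groups overlapped.

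For complex IV the mean was 7.39, 7.50 and 7.57 in Baf155 WT mice and 7.28, 7.47 and 7.53 in Baf155 ΔMF mice, a difference of -0.06. For complex V it was 8.20, 8.18 and 8.33 against 8.13, 8.22 and 8.24, a difference of -0.04 (-0.06 over the members that encode a subunit). ΔMF 1 was the lowest mouse and WT 3 the highest in both, and the groups overlapped. Each of the 4 differences was smaller than the pooled SD between mice, which was 0.08 for complex II, 0.10 for complex III, 0.11 for complex IV and 0.07 for complex V. Between the MS13 mice alone the differences were 0.00, -0.07, -0.01 and -0.02 in the same order. With the median log2 CPM over members in each mouse in place of the mean, the differences were 0.02, -0.14, -0.12 and -0.16 in the same order. The gene in the middle can differ between mice, so these values are not the change of a typical member. The members' median log2 fold changes were 0.05, -5.3e-05, -0.07 and -0.03. For complexes III, IV and V the differences by the median level were larger in size than the pooled SDs above. Those SDs belong to the means, and the spread of the medians between mice was not computed. No test was made of these values.

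**Figure D2:**
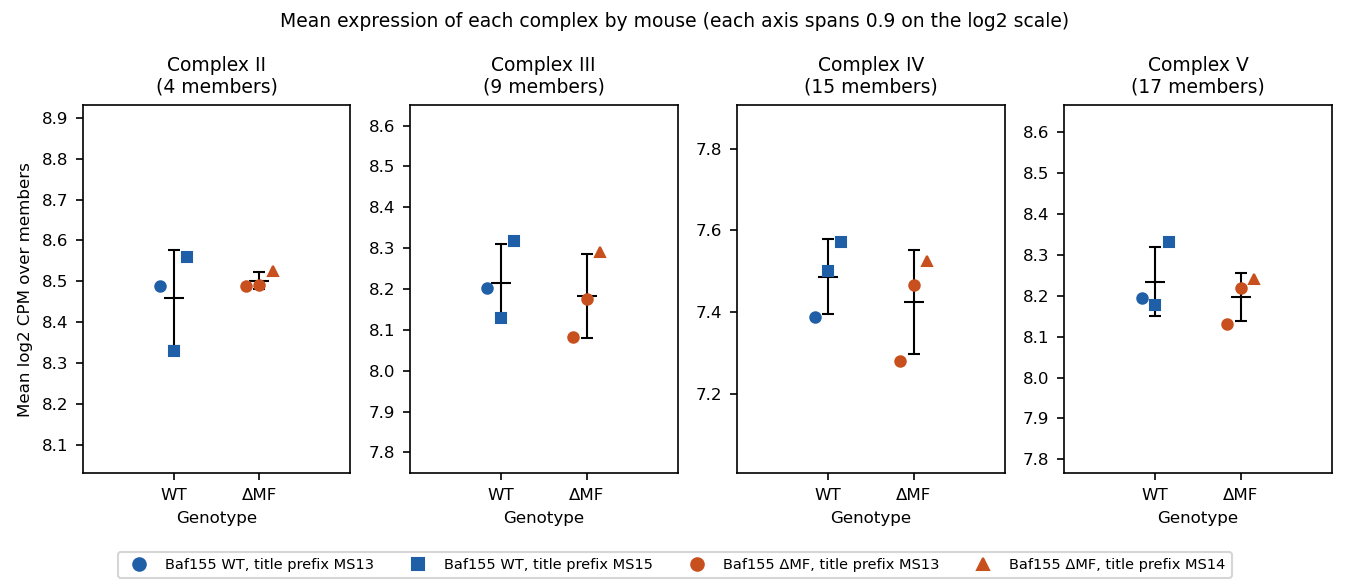
Mean log2 CPM over the tested members of each complex (y axis) in the 3 Baf155 WT and the 3 Baf155 ΔMF mice (x axis). Points are mice, with the shape giving the title prefix, and bars are the mean ± SD. In each panel the range of the mutant mice overlaps that of the WT mice.

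Complex II, or succinate dehydrogenase, also works in the tricarboxylic acid cycle and has no subunit encoded by mitochondrial DNA. *Sdha*, its flavoprotein, was at 674, 503 and 565 CPM in Baf155 WT mice and at 662, 609 and 604 CPM in Baf155 ΔMF mice. WT 1 was the highest mouse and WT 2 and WT 3 the lowest, so the mutants fell inside the range of the WT mice. The log2 fold change was 0.11 (SE 0.117, adjusted p = 0.799 by edgeR), against -0.09 within MS13. It ran from 0.016 without WT 2 to 0.23 without WT 1.

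*Sdhb*, the iron-sulfur subunit, was at 403, 383 and 457 CPM against 430, 455 and 441 CPM. *Sdhc*, a membrane anchor, was at 232, 220 and 249 CPM against 228, 227 and 251 CPM. *Sdhd*, the other anchor, was at 263, 253 and 314 CPM against 256, 265 and 275 CPM. All 3 overlapped between genotypes, with WT 2 the lowest mouse in each and WT 3 the highest in *Sdhb* and *Sdhd*. Their log2 fold changes were 0.09, 0.01 and -0.06, with adjusted p from edgeR of 0.791, 0.974 and 0.878. Per kb of transcript the order within complex II was *Sdhb* at 375, *Sdhd* at 220, *Sdha* at 208 and *Sdhc* at 74.0 CPM per kb, and the levels of *Sdhd* and *Sdha* overlapped between mice.

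Complex III moves electrons from coenzyme Q to cytochrome c. Of its 9 members, 5 had a log2 fold change below 0 and 4 above, from -0.18 for *Uqcr10* to 0.12 for *Uqcrq*, which both encode small subunits. *Uqcrc1*, a core protein and the member of this complex with the highest CPM, was at 613.7, 528.5 and 598.5 CPM in Baf155 WT mice and at 557.6, 553.5 and 629.5 CPM in Baf155 ΔMF mice. The group means were both 580 CPM, with SDs of 45.4 and 42.7, and WT 2 was the lowest mouse.

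The smallest p-values of the complex belonged to 3 genes for small accessory subunits. *Uqcr10* was at 216, 237 and 258 CPM in Baf155 WT mice and at 184, 202 and 243 CPM in Baf155 ΔMF mice. *Uqcr11* was at 277, 293 and 316 CPM against 232, 256 and 302 CPM. *Uqcrb*, which lies near the quinone-binding site, was at 311, 328 and 378 CPM against 294, 316 and 311 CPM. In *Uqcr10* and *Uqcr11* the MS13 mutants lay below every WT mouse while ΔMF 3 lay among them, and in *Uqcrb* ΔMF 2 and ΔMF 3 lay within the WT range. Their log2 fold changes were -0.18 (SE 0.118), -0.16 (SE 0.112) and -0.14 (SE 0.10), with adjusted p from edgeR of 0.682, 0.687 and 0.691. Leaving out 1 mouse moved *Uqcr10* between -0.09 (without ΔMF 1) and -0.29 (without ΔMF 3), and *Uqcr11* between -0.08 and -0.27 in the same fits. The catalytic subunits *Cyc1* (cytochrome c1) and *Uqcrfs1* (the Rieske protein) had log2 fold changes of 0.06 and 0.02. Per kb, complex III ran from *Uqcrh*, the hinge protein, at 666 CPM per kb to *Cyc1* at 154 CPM per kb.

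Complex IV, or cytochrome c oxidase, reduces oxygen to water, and its nuclear subunits surround a core made from mitochondrial DNA. Of its 15 tested members, 13 had a log2 fold change below 0 and 2 above (*Cox5a* and *Cox4i2*), from -0.19 for *Cox8b* to 0.14 for *Cox4i2*. *Cox4i1*, the general isoform of a regulatory subunit and the member of this complex with the highest mean CPM, was at 612, 627 and 722 CPM in Baf155 WT mice and at 571, 602 and 629 CPM in Baf155 ΔMF mice.

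*Cox5b*, a subunit that binds zinc, was at 396, 443 and 464 CPM against 358, 380 and 450 CPM. In both genes WT 3 was the highest mouse and the MS13 mutants were the lowest, while ΔMF 3 lay within the WT range. The log2 fold changes were -0.12 (SE 0.101) for *Cox4i1* and -0.13 (SE 0.112) for *Cox5b*, with adjusted p from edgeR of 0.726 and 0.731. *Cox7a2l*, which encodes no subunit in the usual count, had a log2 fold change of -0.02.

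Skeletal muscle has its own forms of subunits 6a, 7a and 8, and these genes were read beside their general partners as a ratio of CPM within each mouse, which does not depend on how the library was scaled. The muscle form *Cox6a2* was at 579, 651 and 645 CPM in Baf155 WT mice and at 556, 649 and 637 CPM in Baf155 ΔMF mice. The general form *Cox6a1* was at 18.9, 18.4 and 18.9 CPM against 13.8, 18.4 and 23.0 CPM. The WT mice were close to each other in *Cox6a1*, and the mutants ranged from below to above them. The ratio was 30.5, 35.5 and 34.1 in Baf155 WT mice and 40.3, 35.3 and 27.7 in Baf155 ΔMF mice.

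The muscle form *Cox7a1* was at 248, 258 and 298 CPM against 255, 266 and 269 CPM. The general form *Cox7a2* was at 212, 230 and 246 CPM against 203, 226 and 229 CPM. The ratio of this pair was 1.17, 1.12 and 1.21 against 1.26, 1.18 and 1.17. Of the muscle pairs this had the lowest ratio, and the groups overlapped with ΔMF 1 the highest.

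The muscle form *Cox8b* was at 350, 434 and 384 CPM against 287, 324 and 416 CPM. The general form *Cox8a* was at 29.1, 37.6 and 32.2 CPM against 27.2, 29.1 and 34.6 CPM. The ratio was 12.02, 11.54 and 11.91 against 10.56, 11.16 and 12.02. Both genes were lowest in ΔMF 1 and highest in WT 2, and the ratio of ΔMF 3 was as high as that of WT 1. The log2 fold change of *Cox8b* was -0.19 (SE 0.139, adjusted p = 0.703 by edgeR), and it ran from -0.07 without ΔMF 1 to -0.34 without ΔMF 3.

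*Cox4i2*, an isoform of subunit 4 known from lung, was at 1.26, 1.84 and 1.52 CPM in Baf155 WT mice and at 1.17, 1.97 and 1.99 CPM in Baf155 ΔMF mice, above the floor in every mouse. Its ratio to *Cox4i1* was between 0.00206 and 0.00328, and the groups overlapped. On the log2 scale the difference of the ratio between genotypes was 0.03 for subunit 6a (pooled SD 0.21), 0.05 for subunit 7a (pooled SD 0.06), -0.07 for subunit 8 (pooled SD 0.07) and 0.24 for subunit 4 (pooled SD 0.29). For subunit 8 this difference was slightly larger than the pooled SD, at -0.074 against 0.070, although the groups overlapped. Between the MS13 mice alone the differences were 0.30, 0.06, -0.15 and 0.30 in the same order, with 1 Baf155 WT mouse against 2 mutants.

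Per kb of transcript the muscle forms of subunits 6a and 8 were among the highest members of complex IV, at 911 CPM per kb for *Cox6a2* and 1017 for *Cox8b*, against 32.5 for *Cox6a1* and 57.6 for *Cox8a*. *Cox7a1* was at 676 CPM per kb and *Cox7a2* at 340. Averaged over the 6 mice, the ratio of muscle to general form per kb was 28.5 for subunit 6a, 1.99 for subunit 7a and 17.6 for subunit 8. Of the transcripts of each pair, counted per kb, the muscle form made up 95.9% to 97.1% for subunit 6a, 65.2% to 67.9% for subunit 7a and 94.2% to 94.8% for subunit 8 across the mice.

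**Figure D3:**
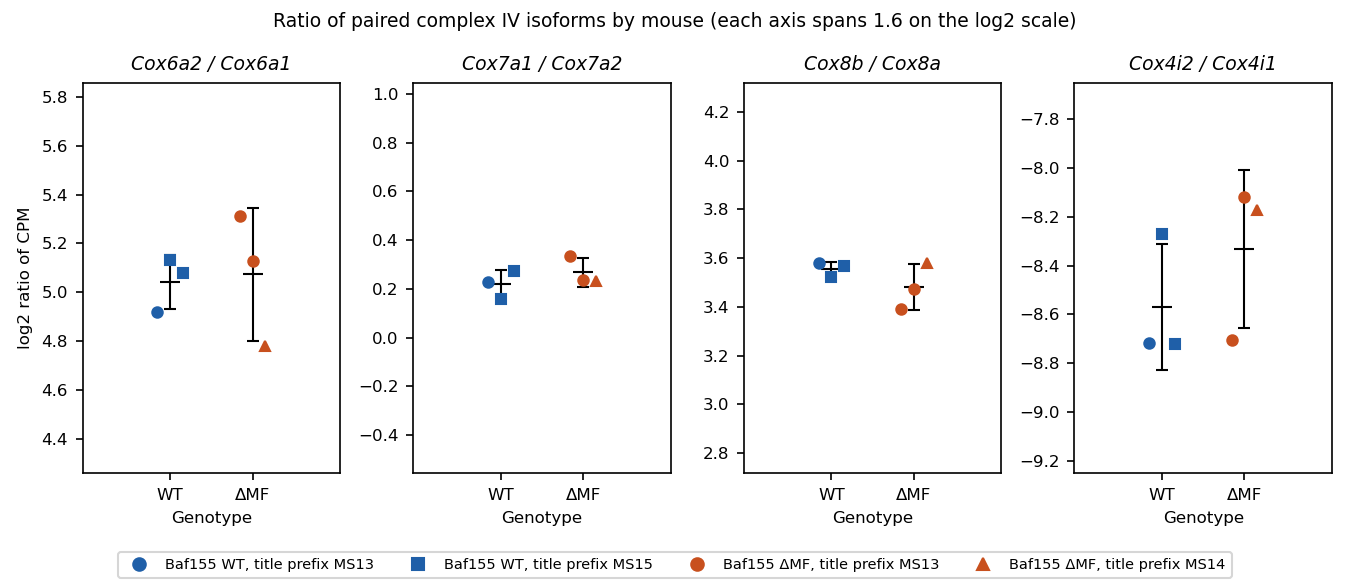
Log2 ratio of CPM of the paired isoform genes of complex IV (y axis, a different range in each panel) in the 3 Baf155 WT and the 3 Baf155 ΔMF mice (x axis). Points are mice, with the shape giving the title prefix, and bars are the mean ± SD. The genotypes overlap in all 4 panels, and the spread of the mutants is wide for *Cox6a2* to *Cox6a1*.

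Sequences upstream of the isoform genes are shown because the paired genes encode forms of the same subunit and were read against each other. RefSeq promoter windows on GRCm38.p6 (300 bases, of which 250 lie before the annotated start) were given for 34 of the 48 members, in 37 windows. They were searched on both strands for the letters of 4 sites known from genes of the respiratory chain: the NRF1 core GCGCATGCG, the ETS core of GABPA CCGGAAG, the ERR site TCAAGGTCA and the YY1 core AAGATGGCG. The 200 bases before the start are printed for each isoform gene with a window and for *Atp5e*, with matches in capitals.
Cox6a1 promoter, chr5:115348959-115349158, minus strand: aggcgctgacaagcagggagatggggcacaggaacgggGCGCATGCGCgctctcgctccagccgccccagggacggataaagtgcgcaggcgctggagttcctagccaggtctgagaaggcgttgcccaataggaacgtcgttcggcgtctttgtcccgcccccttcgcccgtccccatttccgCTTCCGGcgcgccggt
Cox7a1 promoter, chr7:30183971-30184170, plus strand: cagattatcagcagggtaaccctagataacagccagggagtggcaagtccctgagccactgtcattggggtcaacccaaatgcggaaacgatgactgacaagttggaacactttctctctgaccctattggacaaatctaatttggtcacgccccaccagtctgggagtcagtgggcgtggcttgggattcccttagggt
Cox7a2 promoter, chr9:79759854-79760053, minus strand: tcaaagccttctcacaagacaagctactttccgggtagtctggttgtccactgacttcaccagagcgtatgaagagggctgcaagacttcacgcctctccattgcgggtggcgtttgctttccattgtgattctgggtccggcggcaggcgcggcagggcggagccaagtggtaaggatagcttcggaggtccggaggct
Cox8b promoter, chr7:140900447-140900646, minus strand: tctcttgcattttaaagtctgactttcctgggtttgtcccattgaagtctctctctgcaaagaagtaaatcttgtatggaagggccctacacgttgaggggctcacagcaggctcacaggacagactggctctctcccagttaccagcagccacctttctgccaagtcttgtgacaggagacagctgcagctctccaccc
Cox8a promoter, chr19:7217617-7217816, minus strand: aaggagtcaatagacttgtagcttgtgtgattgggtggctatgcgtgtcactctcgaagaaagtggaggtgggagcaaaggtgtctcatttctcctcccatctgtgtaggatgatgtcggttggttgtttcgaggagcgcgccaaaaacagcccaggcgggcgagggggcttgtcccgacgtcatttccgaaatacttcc
Atp5e promoter, chr2:174464102-174464301, minus strand: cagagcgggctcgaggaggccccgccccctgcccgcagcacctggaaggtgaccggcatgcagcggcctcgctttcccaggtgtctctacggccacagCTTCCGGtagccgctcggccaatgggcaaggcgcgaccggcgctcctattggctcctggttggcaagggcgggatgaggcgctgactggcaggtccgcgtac

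*Cox6a1* holds an ETS core, and an NRF1 core that reads on both strands, where the matches overlap in all but 1 letter. The printed stretches of *Cox7a1*, *Cox7a2*, *Cox8b* and *Cox8a* hold none of the letters searched. The window of *Cox8a* has an ETS core that does not lie wholly within the printed bases. *Atp5e* holds 1 ETS core. *Cox6a2*, *Cox4i1* and *Cox4i2* have no window in the table.

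Among the members' windows, 16.2% held the NRF1 core, against 1.75% of all 32851 windows of the table, and these were the windows of *Uqcrc1*, *Uqcr11*, *Cox6a1*, *Atp5g2*, *Atp5k* and *Atp5l*. The ETS core stood in 32.4% against 8.86%, in 12 members. The ERR site stood in 5.41% against 0.423% (*Sdhd* and *Atp5g3*), and the YY1 core in 5.41% against 1.40% (*Atp5j* and *Atp5j2*). A match of letters describes the window only, and binding was not measured here.

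Complex V joins a soluble catalytic part (*Atp5a1*, *Atp5b*, *Atp5c1*, *Atp5d* and *Atp5e*) to a proton-conducting part in the membrane. Of its 17 members, 11 had a log2 fold change below 0 and 6 above, from -0.27 for *Atp5e* to 0.15 for *Atp5s*. *Atp5b*, the catalytic beta subunit and the member with the highest CPM, was at 2519, 2239 and 2462 CPM in Baf155 WT mice and at 2352, 2311 and 2393 CPM in Baf155 ΔMF mice. The mutants lay inside the range of the WT mice, with a log2 fold change of -0.03 (SE 0.102, adjusted p = 0.934 by edgeR).

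*Atp5e*, the epsilon subunit of the catalytic part, lies on the minus strand of chromosome 2 from 174461072 to 174464105 (GRCm38). It was at 261, 335 and 320 CPM in Baf155 WT mice and at 232, 245 and 280 CPM in Baf155 ΔMF mice. ΔMF 1 and ΔMF 2 were below every WT mouse, WT 2 and WT 3 were above every mutant, and WT 1 and ΔMF 3 overlapped. The log2 fold change was -0.27 (SE 0.117, 95% confidence interval -0.53 to -0.02), with an adjusted p of 0.611 by edgeR (0.0392 before adjustment). Within MS13 it was -0.13, and among the Baf155 WT mice the MS15 mice lay 0.33 above the MS13 mouse on the log2 scale. Without WT 1 the log2 fold change was -0.37 and the adjusted p from edgeR 0.0308, in a fit in which 955 of 12288 genes were called. In that fit the genotypes share no title prefix, so genotype and prefix cannot be told apart.

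*Atp5g2*, 1 of 3 genes for the c subunit of the ring, was at 182, 214 and 218 CPM against 173, 205 and 186 CPM. *Atp5s* was at 11.0, 11.5 and 10.6 CPM against 12.1, 13.6 and 11.1 CPM. In *Atp5g2* only ΔMF 1 lay below the WT mice, and in *Atp5s* ΔMF 1 and ΔMF 2 lay above them. The log2 fold changes were -0.12 (SE 0.105) and 0.15 (SE 0.125), with adjusted p from edgeR of 0.738 and 0.720. The other c subunit genes, *Atp5g1* and *Atp5g3*, had log2 fold changes of -0.06 and 0.03, and *Atp5sl* had 0.08.

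Per kb of transcript, *Atp5b* had the highest level of all members at 1242 CPM per kb, and the lowest levels of complex V were those of *Atp5sl* at 12.48 and *Atp5s* at 7.84 CPM per kb. Genes for the c subunit ran from *Atp5g1* at 918 CPM per kb through *Atp5g2* at 446 to *Atp5g3* at 366. Estimated counts of *Atp5j*, *Atp5f1*, *Uqcrc2* and *Cox7b* were not whole numbers in at least 1 mouse, which happens where reads are shared between features, and the symbol *Atp5o* belongs to 2 annotated genes, so the levels of these 5 genes are less certain.

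**Figure D4:**
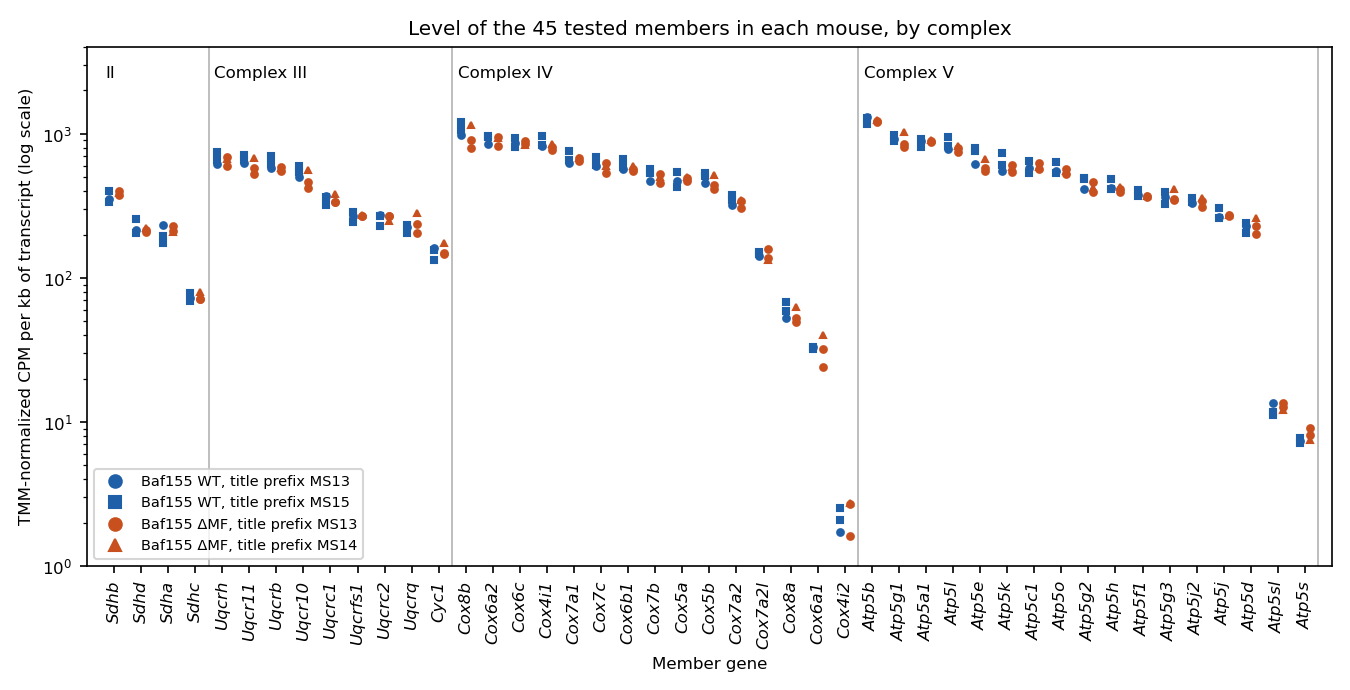
TMM-normalized CPM per kb of transcript (y axis, log scale) for the 45 tested members (x axis), ordered by level within each complex. Points are mice, blue for Baf155 WT and orange for Baf155 ΔMF, with the shape giving the title prefix. The distance between genes, from 2.24 CPM per kb for *Cox4i2* to 1242 for *Atp5b*, is far larger than that between mice or genotypes.

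Genes that act beside these complexes gave no call either. A list of 38 tested genes was chosen by the symbols of complex I subunits, which also took in *Ndufa4* and *Ndufa4l2*. In this list 0 passed an adjusted p of 0.05 by edgeR, and 1 (*Ndufb6*, log2 fold change -0.26) had an unadjusted p under 0.05. The median log2 fold change was -0.07. Assembly factors of complexes II (4 tested), III (6), IV (23) and V with its inhibitor (4) had medians of -0.14, -0.11, -0.07 and -0.10, with 0 calls. Of these, *Ttc19* (0.22) and *Taco1* (0.27) were higher and *Coa3* (-0.31) lower at an unadjusted p under 0.05. Of 12 genes for electron carriers and coenzyme Q synthesis, *Coq2* was lower (-0.22) and *Etfa* higher (0.27) at that limit, and *Cycs*, cytochrome c, had 0.02. Further subunit genes that lack the prefixes of the rule (3 tested, with *Ndufa4* also counted in the complex I list) had a median of -0.08.

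Regulators of these genes were read as a list of 12, of which 9 had a log2 fold change above 0 and none was called by edgeR, with *Esrrg* the only one under an unadjusted p of 0.05. *Esrrg* was at 28.4, 22.5 and 17.0 CPM in Baf155 WT mice and at 34.1, 32.3 and 26.5 CPM in Baf155 ΔMF mice, with a log2 fold change of 0.46 (SE 0.170, adjusted p = 0.601 by edgeR). *Ppargc1a*, the coactivator PGC-1α, had a log2 fold change of 0.21 (adjusted p = 0.627). The median of the list was 0.15, and within MS13 it was -0.0045.

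The members' differences moved with transcript length, which ran from 360 to 3171 nt. Of the 21 members whose transcript is shorter than 700 nt, 19 had a log2 fold change below 0 (median -0.10), against 4 of the 12 longer than 1200 nt (median 0.02). Over all genes tested with a length, 218 of 258 short ones were below 0 (median -0.16). Of the 10921 long ones, 5159 were below 0 (median 0.01). Across the 45 members Spearman's rho between length and log2 fold change was 0.59, and over 12092 genes tested with a length it was 0.32. Genes are not independent replicates, and these values describe the 6 libraries only.

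A relation of the opposite sign stood within the Baf155 WT group. There the log2 difference of the MS15 mice over the MS13 mouse was above 0 in 33 of 45 members (median 0.08), and its rho with length was -0.64 over the members and -0.35 over all genes. Both comparisons contain the same MS15 mice. Between the MS13 mice alone, rho of the genotype difference with length was 0.10 over the members and 0.01 over all genes. There 13 of the 21 short members and 11 of the 12 long ones were below 0. Over all genes 136 of 258 short ones and 5505 of 10921 long ones were. The part of length in the members' differences was not tested.

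**Figure D5:**
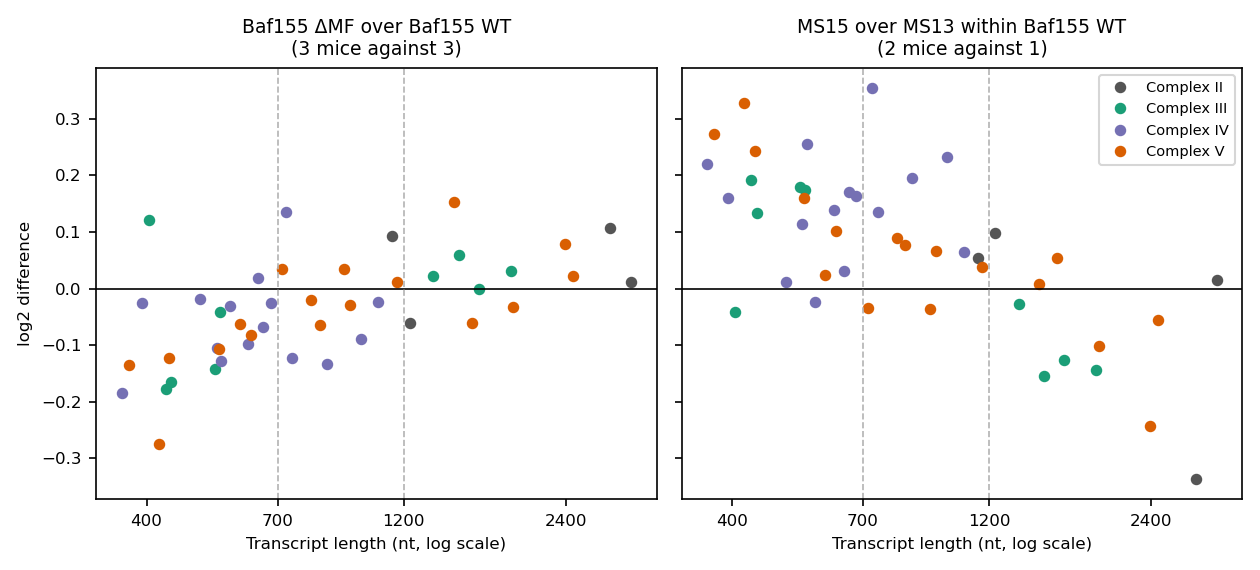
Log2 difference (y axis) against transcript length in nucleotides (x axis, log scale) for the 45 tested members, colored by complex. The left panel compares the genotypes and the right panel the MS15 with the MS13 mice within Baf155 WT, and the panels share the MS15 mice. Short members lie mostly below 0 on the left and mostly above 0 on the right.

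Markers of other cells differed between the mice in ways that partly followed the title prefix. All 4 macrophage markers had an unadjusted p under 0.05 by edgeR (adjusted p of 0.601 each), and their summed level was 69.4, 204 and 160 CPM in Baf155 WT mice and 64.2, 65.3 and 110 CPM in Baf155 ΔMF mice, highest in WT 2 and WT 3. Of 5 tested blood genes, 3 were lower at that limit, with sums of 777, 1227 and 622 CPM against 371, 505 and 805 CPM. Of 4 endothelial markers, 2 (*Pecam1* and *Kdr*) were higher at that limit and did not overlap between genotypes. The sums of all 4 were 568 to 704 CPM against 600 to 772 CPM. Most of each sum came from *Cd36*, with a log2 fold change of 0.10. The 3 brown adipocyte markers together were at 0.842 to 1.16 CPM against 0.641 to 1.05 CPM, with *Ucp1* at 0. The part of these cells in the members' values was not tested.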

How the data were processed

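RNA of hind limb muscle from 6 mice was sequenced by the authors with a stranded total RNA kit, and they deposited an expected count per gene and mouse, estimated without normalization. Their processing notes name CASAVA 1.8.2, cutadapt 1.10, Bowtie2 2.2.7, TopHat2 2.1.1, RSEM 1.2.30 and limma, with the builds mm10 and GRCm38. Expected counts were rounded and compared in R 4.3.3 with edgeR 4.0.16 (filterByExpr with a minimum count of 10 and a minimum total of 15, TMM, quasi-likelihood F test without covariates), with Benjamini-Hochberg adjustment over 12116 genes. Separate animals were the replicates. Log2 CPM used a prior count of 2, and levels per kb used the principal GENCODE M21 transcript. The members and lists, and the rule for the genes named (complex II, the isoform pairs, the highest level and the 3 smallest p-values of complexes III, IV and V, the extremes of each complex, and the targeted gene), were chosen with earlier results of these data known. *Cox5a*, *Cyc1*, *Uqcrfs1*, *Uqcrh*, *Atp5g1* and *Atp5g3* and the genes of the pathway lists past an unadjusted p were named after their values were seen, as was the split by transcript length. Fiber type, heart, stromal, adipocyte, muscle stem cell, nerve, smooth muscle and handling markers were listed too. The alternatives were other scalings and filters, DESeq2 1.42.0, limma 3.58.1 with voom, a robust fit, the title prefix as a covariate, other summaries of a complex, and leaving out each mouse. Protein sequences were not used here.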

Additional observations from a re-analysis of the deposited data

How the results depend on the processing

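The number of members called was 0 under every alternative but 1. Without WT 1, where the genotypes share no title prefix, *Atp5e* passed an adjusted p of 0.05 in edgeR (1 member called). Over the fits without each mouse the number called ran from 0 to 1. In those fits the number of members at an unadjusted p under 0.05 was 3 without WT 1 (23.8% of all genes) and 4 without ΔMF 3 (10.2%). It was 0 without any of the other mice in turn (3.69% to 4.6%), and with the prefix covariate it was 0 (5.08% of all genes). The number of genes called was 3, and it was 17 with no filter beyond 1 count, 23 with DESeq2, 5 with limma and voom, 16 with a covariate for the title prefix and from 0 to 955 without each mouse. At the fits that called 0 genes (without WT 2 and without ΔMF 2) 451 and 568 genes had an unadjusted p under 0.05. The adjusted p of *Smarcc1* rose to 0.0616 without WT 2, 0.0533 without ΔMF 1 and 0.0678 without ΔMF 2. The cause was not tested.

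Of 104 values for complex means and isoform ratios under alternatives, 100 moved by less than the pooled SD. The difference of the median log2 CPM over members in each mouse was -0.14 for complex III and -0.16 for complex V. Within MS13 the ratio difference was 0.30 for *Cox6a2* to *Cox6a1* and -0.15 for *Cox8b* to *Cox8a*. Some values that moved by less than the pooled SD changed sign. Complex II was at -0.019 with library size alone and without WT 2, and complex III at 0.017 without WT 3 and without ΔMF 1. Complex IV was at 0.010 without ΔMF 1 and complex V at 0.011 without WT 3. The ratio difference of *Cox6a2* to *Cox6a1* was -0.03 without WT 1 and -0.09 without ΔMF 1. Of the 21 named members, 11 kept the sign of their log2 fold change and 10 changed it at least once. With the prefix covariate the genotype difference rests on the MS13 mice alone, 1 Baf155 WT mouse against 2 mutants. Under it the values were 0.053 for *Atp5g2*, 0.057 for *Cox6a2*, 0.072 for *Cox7a1*, 0.017 for *Cox7a2*, -0.084 for *Sdha* and -0.0245 for *Sdhc*. *Sdhc* was at -0.0013 with upper quartile scaling and -0.048 with library size alone. *Uqcrc1* was at 0.0011 with RLE scaling, 0.0002 with no filter, 0.0012 with DESeq2 and 0.0001 with limma. Without each mouse, the log2 fold change ran from -0.079 to 0.0022 for *Atp5b*, -0.22 to 0.14 for *Cox6a1*, -0.077 to 0.042 for *Cox6a2*, -0.0755 to 0.058 for *Cox7a1*, -0.033 to 0.061 for *Sdhc*, -0.12 to 0.041 for *Sdhd* and -0.0597 to 0.0435 for *Uqcrc1*. With library size alone the members' median was -0.09, against -0.06 for all genes.

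No paired analysis was possible because no label says that the numbers in the titles pair mice of different genotypes. The title prefix, which the labels do not explain, entered as a covariate instead. That fit takes its genotype difference from the MS13 mice alone, so it is no comparison apart from the one within MS13. Among the tested members the depth limits *Cox4i2* most, with 11 to 24 counts per mouse.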

Other observations

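Among the genes that mark muscle fiber types, *Myh1*, a fast myosin, was higher at an unadjusted p under 0.05, with 5731, 4034 and 4810 CPM in Baf155 WT mice and 7683, 6341 and 6466 CPM in Baf155 ΔMF mice, and its adjusted p in edgeR was 0.601. The groups did not overlap, and the log2 fold change was 0.49 (SE 0.148) and 0.28 between the MS13 mice. *Myh2*, the myosin of fast oxidative fibers, was at 2228, 1573 and 1483 CPM against 2404, 2276 and 2175 CPM, with an adjusted p of 0.601 by edgeR, and here ΔMF 3 lay below WT 1. The medians of the fiber lists were -0.06 for 6 fast genes and -0.01 for 7 slow and oxidative genes.

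Of 5 genes that respond to handling, the heat shock genes *Hspa1a* (log2 fold change -1.01) and *Hspa1b* (-1.09) were lower at an unadjusted p under 0.05, with adjusted p of 0.186 and 0.436 by edgeR, and every Baf155 ΔMF mouse lay below every Baf155 WT mouse in both. Of 4 stromal markers *Dcn* was lower (-0.43), with a list median of 0.02 and values above 0 for the 2 collagen genes, and of 5 adipocyte markers *Adipoq* was lower (-0.86, list median -0.40), each at an unadjusted p under 0.05 and with WT 2 and WT 3 the highest mice. No gene of the muscle stem cell, smooth muscle, nerve, heart or common muscle lists reached that limit, with list medians of -0.04, 0.06, 0.10, 0.16 and -0.17. The common muscle genes went in both directions, with *Ttn* at 0.43, *Acta1* at -0.17 and *Ckm* at -0.20. Of these, *Ckm* did not overlap between genotypes.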
